A study of Mus musculus with 47 samples.

Results

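The mRNA of 6 hepatic uptake transporters was followed in the livers of male and female mice with and without the pregnane X receptor (PXR), each either untreated or given antibiotics (ATB). Of the 6, Slco1a1, Slco1a4, Slco1b2, Slco2a1 and Slco2b1 belong to the organic anion transporting polypeptide (OATP) family, and Slc10a1 encodes the sodium taurocholate cotransporting polypeptide. The members are the gene probes of the array that carry these symbols, a rule that uses no measured value, although the set of symbols was put together with earlier results of these data known. They are 6 of the 37325 gene names on the array and 6 of the 21873 genes tested. They have 13 of its 56605 gene probes, of which 12 passed the filter on low signal, with at least 1 for each transporter.

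OATPs bring organic anions such as bile salts, steroid and thyroid hormone conjugates and many drugs into cells without using sodium. In the liver, several but not all of them act at the blood-facing membrane of the hepatocyte. Slc10a1 works at the same membrane and takes up conjugated bile salts together with sodium. PXR, encoded by Nr1i2, is a nuclear receptor that is activated by drugs and by some bile acids and turns on genes of drug uptake, metabolism and export, and rodent Slco1a4 is known to rise when PXR is activated.

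Agilent arrays of 1 colour were hybridized with liver RNA from 47 mice, a separate array per mouse, in 8 groups set by sex, by genotype (Pxr+/+ or Pxr-/-) and by drinking water (control or ATB). The study's methods give arrays for 6 mice per group, and this held except for the Pxr-/- control males, of which 5 are analysed here. All mice were littermates on the C57BL/6J background, born to Pxr+/- parents derived from a backcrossed Pxr-/- line, and they were killed 6 h after lights on. ATB mice drank water with vancomycin at 0.5 g/L and with neomycin and ampicillin at 1 g/L each for 2 weeks, starting at 6 months of age, and control mice drank tap water. The deletion is present in the whole animal from birth, so PXR is also missing from the gut and other organs. The mice of each group came from 2 cages, and because the labels do not tie a mouse to its cage, the p-values treat cage mates as independent.

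The 75th percentile of the gene probes' intensity lay between 306 and 492.5 on the 47 arrays, with a local background of 15 to 21, and 31067 to 34458 probes were well above background on each array. Values below are log2 levels after normalization, comparable within 1 probe and not between probes, and a gene is read by its probe with the highest mean signal unless stated. A difference counted as called if its adjusted p did not exceed 0.05 and its fold change was above 1.2, or 0.26 on the log2 scale (limma, Benjamini-Hochberg over all probes tested). The fit gives each probe 1 spread for all 8 groups, so mice outside a comparison can change its SE and p. Of 10 hepatocyte markers 9 were tested, and their mean log2 level stayed between 16.62 and 17.07 in every mouse. Xist was at least 10.1-fold lower and Eif2s3y at least 39.7-fold higher in males than in females of each genotype and treatment. The Nr1i2 probe gave a signal well above background in every mouse of both genotypes, from 10.36 to 11.89 in Pxr-/- and from 11.24 to 12.41 in Pxr+/+ mice. Its log2 differences between genotypes lay between -0.57 and -0.28, with overlap, and none was called. Where that probe lies relative to the deleted part is not stated, so it checks nothing about genotype. Cyp2c55, a PXR-responsive cytochrome P450, was higher in Pxr-/- than in Pxr+/+ mice of each sex and treatment, by 2.36 to 3.37 on the log2 scale, with no overlap between the groups. PXR ligands induce this gene, so a rise without PXR is the opposite direction, and it shows only that the genotypes differ. Cyp2c55 is counted again below among the genes that PXR ligands induce.

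The scaling of the arrays matters for small changes. The median log2 difference over all probes was -0.196 between Pxr+/+ control males and females and -0.113 between Pxr-/- and Pxr+/+ control females, and quantile normalization of all arrays brought these to 0.02 and 0.002. With it, the share of called genes that were higher moved from 6.77% to 45.6% in the first comparison and from 6.58% to 42% in the second. Likewise, between Pxr-/- and Pxr+/+ ATB males it moved from 33.8% to 83.3%, and between ATB and control Pxr+/+ males from 84.5% to 32.8%. For the other 3 comparisons of sex it moved from 15.2% to 49.1% (Pxr-/- control), from 27.5% to 43.5% (Pxr+/+ ATB) and from 9.79% to 51.6% (Pxr-/- ATB), and for the other 3 of treatment from 45.8% to 33.3% (Pxr-/- males), from 0% to 28.6% (Pxr+/+ females) and from 83.3% to 63.2% (Pxr-/- females). Small called changes of the transporters are therefore given with their value under that scaling.

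Between genotypes, Slco1a4 was much lower in Pxr-/- males, treated or not, and Slco2a1 was slightly lower in Pxr-/- control females. Over the 4 comparisons of genotype, 3 of 24 values were called, all lower in Pxr-/- mice. One transporter of 6 was called in control males, where 0.187% of all genes were called, and 1 in ATB males, against 0.892% of all genes. In control females 1 was called against 3.2% of all genes, and in ATB females 0 were called by limma, with 0 of 6 at an unadjusted p under 0.05, against 0.206% of all genes.

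Slco1a4 (Oatp1a4) carries bile salts, steroid conjugates and cardiac glycosides, and its probe lies at chr6:141754675-141754734 on the minus strand (mm9). In Pxr+/+ control males its level had a lowest value of 9.74, a median of 10.08 and a highest value of 10.59. In the 5 Pxr-/- control males it was 6.64, 6.92, 7.22, 7.32 and 7.80. Every Pxr-/- control male was below every Pxr+/+ control male. The log2 difference was -2.92 (SE 0.21, adjusted p = 1.24e-12), a 7.59-fold lower level, and it ranked 1 of all genes tested by the size of the change in that comparison. In bulk liver, fewer cells of a type and less RNA per cell cannot be told apart.

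ATB males gave the same picture at a somewhat smaller size. Pxr+/+ ATB males ranged from 10.10 to 10.70 with a median of 10.24, and Pxr-/- ATB males from 7.53 to 8.46 with a median of 8.25, again without overlap. The difference was -2.21 (SE 0.20, adjusted p = 2.96e-10), or 4.63-fold. Within wash batch 1, the hybridization wash given in the labels, the genotype differences were -2.57 in control and -2.11 in ATB males, and within batches 2 and 3 they were -3.15 and -2.31, all called.

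Females kept a high level of Slco1a4 in both genotypes. Pxr+/+ control females ranged from 11.18 to 11.91 with a median of 11.41, and Pxr-/- control females from 10.12 to 11.33 with a median of 11.16. The groups overlapped, and the difference of -0.50 (SE 0.20) was not called (adjusted p = 0.15). In ATB females, Pxr+/+ mice lay at 10.98 to 12.03 and Pxr-/- mice at 11.08 to 11.75, and the difference was -0.06 (SE 0.20, adjusted p = 1). The lowest Pxr-/- control female, at 10.12, stood apart from the other 5, which lay at 10.92 or above.

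The effect of genotype on Slco1a4 differed between the sexes by a direct test. The male effect less the female effect was -2.42 (SE 0.30, adjusted p = 9.33e-06) in control mice, a difference called for 0.0229% of all genes. In ATB mice it was -2.15 (SE 0.29, adjusted p = 2.37e-05), against 0.0457% of all genes. Within wash batch 1 both kept their direction but were not called, at -1.81 (adjusted p = 0.541) and -1.88 (adjusted p = 0.357), whereas within batches 2 and 3 both were called, at -2.90 (adjusted p = 0.00251) and -2.43 (adjusted p = 0.0367). None of the other 5 transporters was called for a difference of the genotype effect between sexes.

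**Figure D1:**
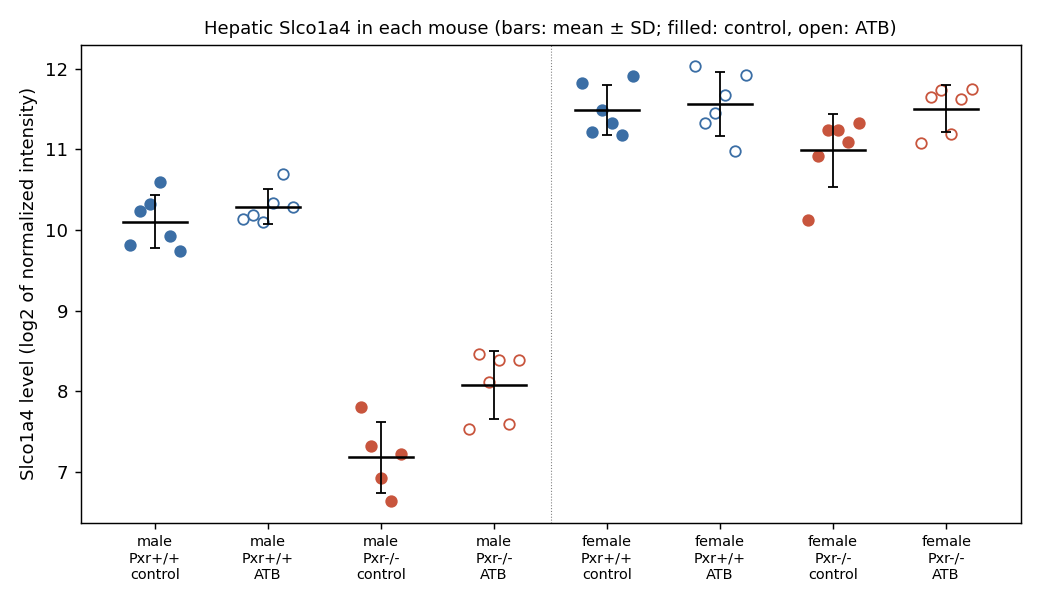
Slco1a4 level of each mouse on the y axis (log2 of the normalized intensity), by sex, genotype and treatment on the x axis, with points for mice (filled for control, open for ATB) and bars for the group mean ± SD. Pxr-/- males lie between 6.64 and 8.46, below all Pxr+/+ males, which lie between 9.74 and 10.70, while the 4 groups of females overlap between 10.12 and 12.03.

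The order of the Slco1a4 group means was Pxr-/- control males (7.18 ± 0.43 SD, n = 5), Pxr-/- ATB males (8.08 ± 0.42, n = 6), Pxr+/+ control males (10.1 ± 0.33), Pxr+/+ ATB males (10.29 ± 0.22) and then the 4 groups of females from 10.99 to 11.56. The gap between the Pxr-/- and the Pxr+/+ males was the only one between neighbours in this order that no mouse bridged. Treatment moved Slco1a4 most in Pxr-/- males, by 0.90 (SE 0.21), where 2 of the 6 treated mice, at 7.53 and 7.60, lay below the highest control at 7.80. That difference was not called (adjusted p = 0.11), although it passed with the scanner's processed signal (0.98, adjusted p = 0.0323) and without the outlying female named above (0.90, adjusted p = 0.0497). The changes with ATB were 0.19 in Pxr+/+ males, 0.07 in Pxr+/+ females and 0.52 (adjusted p = 0.297) in Pxr-/- females.

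Antibiotics changed none of the 6 transporters past the threshold. By limma 0 of 24 values were called, while 7 of 24 had an unadjusted p under 0.05. The share of all genes called was 1.03% in Pxr+/+ males, 0.11% in Pxr-/- males, 0.0137% in Pxr+/+ females and 0.0274% in Pxr-/- females. The tests of a difference between ATB effects gave 0 transporters as well. Between genotypes, they called 0.0183% of all genes in males and 0 in females, where 2061 genes had an unadjusted p under 0.05. Between the sexes, they called 0.0411% of all genes in Pxr+/+ and 0.00457% in Pxr-/- mice. Of the 24 values for the 6 transporters in these 4 tests, 5 had an unadjusted p under 0.05.

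Sex was the factor that moved the transporters most often, with 12 of 24 values called, 4 higher and 8 lower in males. In Pxr+/+ control mice 3 of 6 transporters were called, against 32.1% of all genes, and in Pxr-/- control mice 2 of 6, against 16%. In ATB mice 3 of 6 were called in Pxr+/+, against 12.4% of all genes, and 4 of 6 in Pxr-/-, against 25.8%. Many genes differed between the sexes, so nothing particular to the transporters is read from these counts.

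Slco1a4 was female-biased in each of the 4 comparisons, without overlap between the sexes. In Pxr+/+ mice males were lower by a log2 difference of -1.39 (2.61-fold) without and -1.27 (2.41-fold) with ATB, at adjusted p-values of 1.53e-06 and 1.05e-05. In Pxr-/- mice the same difference reached -3.81 (14-fold, adjusted p = 2.13e-18) without and -3.43 (10.7-fold, adjusted p = 1.32e-17) with ATB. These 4 values share their samples with the genotype comparisons above, and the difference between the genotypes is the one already tested there.

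Slco1a1 (Oatp1a1), which carries sulfated steroids, glucuronides and bile salts, showed the opposite and larger sex bias. Control males ranged from 12.03 to 12.79 in Pxr+/+ mice, with a median of 12.42, and from 12.28 to 12.90 in Pxr-/- mice. Control females ranged from 5.02 to 9.21 in Pxr+/+ mice, with a median of 7.62, and from 4.74 to 8.71 in Pxr-/- mice, with a median of 6.30. No female of any group reached the level of any male. The difference was 4.96 (SE 0.49, 31.2-fold, adjusted p = 1.17e-10) in Pxr+/+ and 6.10 (SE 0.51, 68.5-fold, adjusted p = 1.34e-12) in Pxr-/- control mice.

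In ATB mice the male excess of Slco1a1 was 4.58 (24-fold) in Pxr+/+ and 4.03 (16.4-fold) in Pxr-/- mice, with adjusted p-values of 9.87e-10 and 2.21e-08. A second probe nearer the 3′ end of the same transcript (NM_013797) gave 4.68, 5.85, 4.37 and 4.08 in the same 4 comparisons (Pxr+/+ control, Pxr-/- control, Pxr+/+ ATB, Pxr-/- ATB), all called and without overlap. In males the genotype differences of Slco1a1 were 0.19 (SE 0.51) in control and -0.10 (SE 0.49) in ATB mice, and neither was called. These SEs rest on the spread shared with females, while the SD within the groups of males was only 0.26 to 0.44.

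Among females, Slco1a1 varied more from mouse to mouse than any other of the 6. The SD was 1.51 in Pxr+/+ control, 1.25 in Pxr+/+ ATB and 1.30 in Pxr-/- control females, against 0.12 in the 6 Pxr-/- ATB females, which all lay between 8.35 and 8.67. By the second probe these 6 mice spread more, from 7.25 to 8.19 (SD 0.34), against SDs of 1.01 to 1.25 in the other groups of females. Only 1 of the 6 Pxr-/- control females, at 8.71, was as high by the first probe, and in another the probe was not well above background. The increase with ATB in Pxr-/- females was 1.99 (SE 0.49, 3.98-fold) and was not called (adjusted p = 0.0726), and the second probe gave 1.73 (adjusted p = 0.0715). Without the control female at 8.71 it was 2.45 and passed (adjusted p = 0.0314), and without either of 2 Pxr+/+ control females (replicates 4 and 5) it stayed at 1.99 and passed as well (adjusted p = 0.0498 and 0.0451). The genotype difference in control females was -0.94 (SE 0.49, adjusted p = 0.257).

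**Figure D2:**
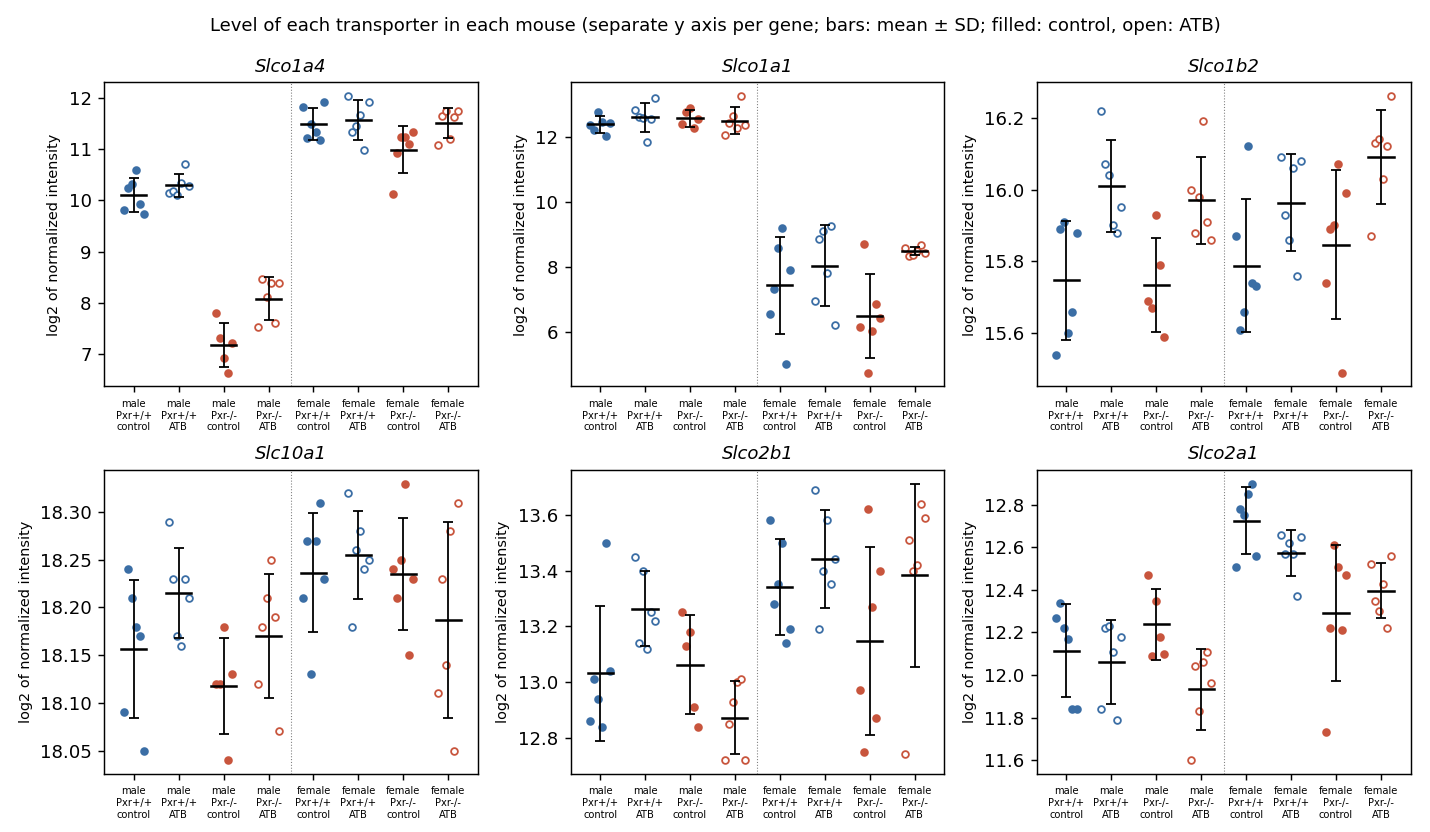
Level of each of the 6 transporters in each mouse (log2 of the normalized intensity, a separate y axis for each gene), by sex, genotype and treatment, with points for mice (filled for control, open for ATB) and bars for the group mean ± SD. Slco1a4 separates the Pxr-/- males from all other groups, Slco1a1 separates males, at 11.86 or above, from females, at 9.25 or below, and Slc10a1 stays between 18.04 and 18.33 in all mice.

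Slco1a4 and Slco1a1 are neighbours on mouse chromosome 6, in the order Slco1c1, Slco1b2, Gm5724, Slco1a4, Slco1a1, Gm6614, Slco1a6 and Slco1a5 among the Slco genes there. Their proximal promoters are shown because the genes lie side by side and differ between the sexes in opposite directions. Both windows are the 250 bases before the start site, on the minus strand, from RefSeq (GRCm38.p6), at chr6:141856221-141856470 for Slco1a4 and chr6:141946963-141947212 for Slco1a1. Capitals mark matches to the motifs searched on both strands, which were AGGTCA (a nuclear receptor half-site), AGTTCA (the half-site of PXR elements), the DR3 element (that half-site as a direct repeat), TTCNNNGAA (STAT5), the HNF1 palindrome, CAAAGTCCA (HNF4) and TATAAA.
Slco1a4: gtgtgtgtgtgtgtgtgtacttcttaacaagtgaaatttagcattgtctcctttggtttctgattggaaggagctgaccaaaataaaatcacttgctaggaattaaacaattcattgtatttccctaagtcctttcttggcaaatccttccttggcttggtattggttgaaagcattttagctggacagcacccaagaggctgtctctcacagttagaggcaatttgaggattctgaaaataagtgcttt
Slco1a1: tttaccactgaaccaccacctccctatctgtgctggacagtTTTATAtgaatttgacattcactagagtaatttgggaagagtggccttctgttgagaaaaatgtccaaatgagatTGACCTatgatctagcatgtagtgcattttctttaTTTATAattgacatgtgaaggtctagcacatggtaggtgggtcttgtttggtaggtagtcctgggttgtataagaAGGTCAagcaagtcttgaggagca
The Slco1a4 window held 0 matches. The Slco1a1 window held 4, with AGGTCA starting at -24 and, on the other strand, at -134, and TATAAA on the other strand at -209 and -99. Of 32851 promoter windows of the same length, 14% held AGGTCA, 11.8% AGTTCA, 0% the DR3 element, 7.02% TTCNNNGAA, 0.00913% the HNF1 palindrome, 0.384% CAAAGTCCA and 12.4% TATAAA. A match is no evidence of a bound site, and these windows leave out distal enhancers. Because no window at all held the exact DR3 element, its absence before Slco1a4 says nothing about PXR. Repeats with other spacing or orientation were not searched.

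Slco1b2 (Oatp1b2), the main OATP of mouse hepatocytes for bilirubin and many drugs, varied little across the design. The 8 group medians lay between 15.69 and 16.12, with SDs of 0.12 to 0.21, and every pair of groups compared overlapped. None of its 12 simple comparisons was called by either of its probes. Its ATB values were 0.26 in Pxr+/+ males, 0.24 in Pxr-/- males, 0.18 in Pxr+/+ females and 0.24 in Pxr-/- females (SE 0.09 to 0.10, adjusted p = 0.133 to 0.67). Relative to the median of all probes they were 0.16, 0.23, 0.24 and 0.18. Of these 4 ATB values, 3 had an unadjusted p under 0.05 by limma. The second probe gave 0.26, -0.02, -0.05 and 0.18 with ATB in the same order. With the processed signal, males were higher than females in Pxr+/+ control mice by 0.27 (adjusted p = 0.0196), where the value reported here is -0.04.

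Slc10a1, the sodium-dependent bile salt carrier, was the most even of the 6 by its brighter probe. Every mouse lay between 18.04 and 18.33, the SD within groups was 0.04 to 0.10, and the spots were saturated on 0 arrays. Whether differences are compressed at so high a signal was not tested. The largest of the 12 simple differences was -0.12 (males less females, Pxr-/- control mice, SE 0.06, adjusted p = 0.158). A second probe, for another transcript of the gene (NM_001177561), was lower in Pxr-/- than in Pxr+/+ ATB males by -0.43 (adjusted p = 0.0386), with overlap, and lower in males than in females among Pxr-/- ATB mice by -0.37 (adjusted p = 0.00881), without overlap. Both calls were lost under quantile normalization, at -0.28 (adjusted p = 0.214) and -0.22 (adjusted p = 0.105). The SD within groups of this dimmer probe was 0.12 to 0.25.

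Slco2b1 (Oatp2b1), which carries steroid sulfates and drugs in liver and gut, differed between the sexes in 1 of 4 comparisons. In Pxr-/- ATB mice males ranged from 12.72 to 13.01 and females from 12.74 to 13.64, with a difference of -0.51 (SE 0.13, adjusted p = 0.00386). A single female at 12.74 overlapped the males, the other 5 lying at 13.40 or above. Under quantile normalization the difference was -0.32 (adjusted p = 0.0292), and with the processed signal it was -0.23 and not called (adjusted p = 0.123). Among ATB males, Pxr-/- mice (12.72 to 13.01) lay wholly below Pxr+/+ mice (13.12 to 13.45), yet the difference of -0.39 was not called (adjusted p = 0.106). A second probe that the files name for Slco2b1 lies on the opposite strand of the genome and was lower in males in Pxr+/+ control (-0.39, adjusted p = 0.0408) and Pxr-/- ATB mice (-0.56, adjusted p = 0.00525). Neither of these calls was kept under quantile normalization, at -0.17 (adjusted p = 0.47) and -0.36 (adjusted p = 0.0914).

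Slco2a1, the prostaglandin transporter, was the only one of the 6 called between genotypes in females, in control mice. Pxr+/+ control females lay between 12.51 and 12.90, with a median of 12.77, and Pxr-/- control females between 11.73 and 12.61, with a median of 12.35. The groups overlapped in the range from 12.51 to 12.61. The difference was -0.43 (SE 0.12, 1.35-fold, adjusted p = 0.0302), and a second probe gave -0.59 (adjusted p = 0.0171), whereas another (A_55_P2941602) gave 0.03 and was not called (adjusted p = 0.935). Under quantile normalization the values of the first 2 probes were -0.32 (adjusted p = 0.13) and -0.45 (adjusted p = 0.046). The first probe's call was lost in 8 of 13 alternatives and in 7 of 47 fits that left out 1 mouse, among them the fit without the lowest Pxr-/- control female (-0.32, adjusted p = 0.101). In ATB females the genotype difference was -0.17, in control males 0.12 and in ATB males -0.13, and none of these was called. The effect in males less that in females was 0.56 in control mice (adjusted p = 0.973), so a difference between the sexes was not shown. In that test 2 of 6 transporters, Slco2a1 among them, had an unadjusted p under 0.05 by limma. The second probe gave 0.84 and A_55_P2941602 gave -0.23, neither called.

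The same gene was lower in males than in females in 3 of 4 comparisons, without overlap, by -0.61 (adjusted p = 8.6e-05) in Pxr+/+ control, -0.51 (adjusted p = 0.00166) in Pxr+/+ ATB and -0.47 (adjusted p = 0.00264) in Pxr-/- ATB mice. In Pxr-/- control mice the sexes differed by -0.06 (adjusted p = 0.793). Under quantile normalization the 3 values were -0.41 (adjusted p = 0.00416), -0.47 (adjusted p = 0.00114) and -0.28 (adjusted p = 0.0637), so the last call was lost. The second probe gave -0.85, -0.50 and -0.51 in these 3 comparisons, all called, and 0.00 in Pxr-/- control mice. Probe A_55_P2941602 was called in none of them, at 0.29, 0.20 and 0.08, and under quantile normalization it was called in the opposite direction in Pxr+/+ control mice (0.55, adjusted p = 0.00476). The probes of Slco2a1 thus disagree on both the genotype and the sex difference. The first is annotated to NM_033314, the second to ENSMUST00000035148 and A_55_P2941602 to ENSMUST00000190892. Whether transcripts of the gene differ was not tested. The remaining probe was above background on 0 arrays and was not tested.

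Markers of sinusoidal endothelial cells and macrophages were also lower where Slco2a1 was lower in Pxr-/- control females. In Pxr-/- against Pxr+/+ control females, 6 of 10 sinusoidal endothelial markers fell, including Stab2 (-0.61) and Gpr182 (-0.66), with a list median of -0.57 against -0.12 for all genes. In the same comparison 7 of 11 markers of Kupffer cells and macrophages fell, including Vsig4 (-1.10) and C1qa (-1.05), with a list median of -0.88. Of 5 other endothelial markers 1 fell, Cdh5 (-0.60), with a list median of -0.38. The mean level of the endothelial markers ranged from 10.38 to 10.69 in Pxr+/+ and from 9.48 to 10.51 in Pxr-/- control females, and that of the macrophage markers from 10.84 to 11.78 and from 9.89 to 10.53. Under quantile normalization the counts were 2 of 10, 3 of 11 and 0 of 5, with list medians of -0.44, -0.74 and -0.23.

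Between Pxr+/+ control males and females, 8 of 10 sinusoidal endothelial, 4 of 5 other endothelial and 10 of 11 macrophage markers were lower in males, with list medians of -0.53, -0.49 and -1.06 against -0.20 for all genes. Of the 21873 genes tested, 6539 were called lower in males in that comparison, and 1829 under quantile normalization. The marker counts of this paragraph are given without that scaling. In the other two comparisons in which Slco2a1 was lower in males, the counts in the same order were 2 of 10, 1 of 5 and 6 of 11 (Pxr+/+ ATB) and 2 of 10, 1 of 5 and 0 of 11 (Pxr-/- ATB). In Pxr-/- control mice, where Slco2a1 differed by -0.06, they were 1 of 10, 2 of 5 and 5 of 11. Genes called lower in males numbered 1972 in Pxr+/+ ATB, 5087 in Pxr-/- ATB and 2970 in Pxr-/- control mice. Of the hepatocyte markers 0 of 9 were called by limma in any comparison of genotype or treatment, with 7 of 36 and 3 of 36 values at an unadjusted p under 0.05. Of the 8 stellate cell markers, 6 were lower in Pxr+/+ control males than in females and 0 were called between genotypes (2 of 32 values at an unadjusted p under 0.05). The lists of lymphocyte and cholangiocyte markers gave 0 calls between genotypes as well, with 0 of 16 and 2 of 24 values at an unadjusted p under 0.05. Between the sexes, 4 of 36 hepatocyte, 5 of 16 lymphocyte and 2 of 24 cholangiocyte values were called over the 4 comparisons. The part of the endothelial and macrophage markers in the Slco2a1 values was not tested.

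**Figure D3:**
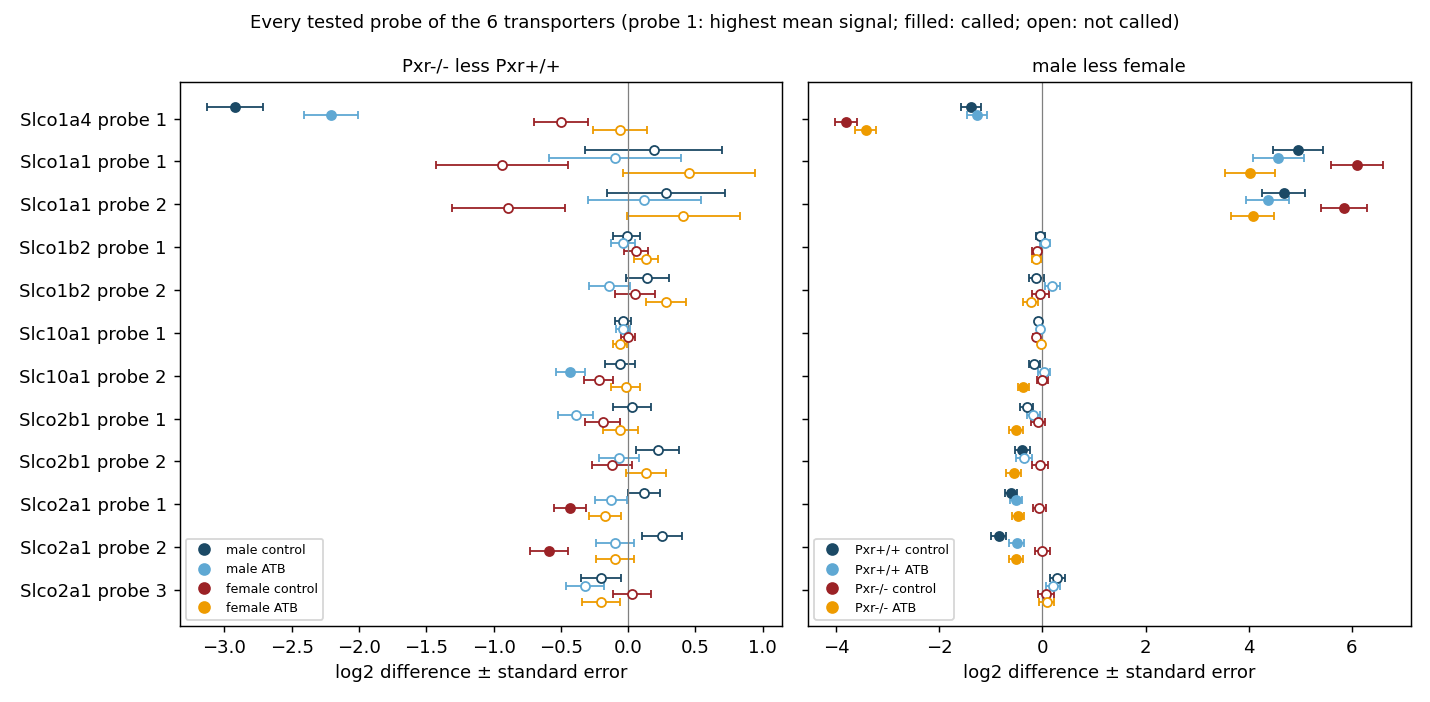
Log2 differences (x axis) of every tested probe of the 6 transporters (y axis) between genotypes (left, Pxr-/- less Pxr+/+) and between sexes (right, males less females), with the standard error as bars, filled symbols for called and open symbols for values not called. Probe 1 is the one with the highest mean signal. Both Slco1a1 probes lie above 4 in every sex comparison, and Slco2a1 probe 3, unlike probes 1 and 2, is called in none.

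Other transporters of the same and related families were called between the sexes and not between genotypes or treatments. Of 14 symbols listed for other Slco genes, which need not all be separate genes or on the array, 4 had a tested probe. By limma 0 of 4 were called for genotype or treatment, with 0 of 16 values in each at an unadjusted p under 0.05. Their list medians lay between -0.13 and -0.01, and those of all genes between -0.13 and 0.10. Slco3a1, a prostaglandin carrier, was lower in Pxr+/+ control males (-0.52), a call that was kept under only 1 of 4 other scalings. Of 18 Slc22 and Slc47 genes tested, which encode organic cation and anion transporters, 0 were called by limma for genotype or treatment, with 9 and 8 of 72 values at an unadjusted p under 0.05.

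Between the sexes of Pxr+/+ control mice, 9 of these 18 genes were lower in males and 1 was higher, with a list median of -0.29 against -0.20 for all genes. The largest changes were those of Slc22a26 (-6.44), Slc22a27 (-4.80) and Slc22a29 (-3.29), close paralogs whose probes may not tell them apart, and of the carnitine transporter Slc22a5 (-0.69, a call kept under 1 of 4 other scalings). In the other 3 comparisons 6, 6 and 9 genes were lower in males (Pxr-/- control, Pxr+/+ ATB and Pxr-/- ATB). Of all 21873 genes tested, 6539 were called lower in males in Pxr+/+ control mice, and 2970, 1972 and 5087 in these 3 comparisons. Nothing particular to the family is read from these counts, which are given without quantile normalization. Slc22a7, which carries organic anions, was higher in males in ATB mice, by 1.56 in Pxr+/+ and 2.04 in Pxr-/- mice. Among 6 tested Slc10 and Slc51 genes, of which limma called 0 for genotype or treatment (3 of 24 values in each at an unadjusted p under 0.05), Slc51b, a subunit of the bile salt exporter OSTα-OSTβ, was lower in males in each of the 4 comparisons, by -0.71 to -1.25. In males it was well above background in only some mice of each group, and its call in Pxr+/+ ATB mice was kept under 1 of 4 other scalings. The ileal-type bile salt carrier Slc10a2 was higher in males in ATB mice, by 0.90 in Pxr+/+ and 1.00 in Pxr-/- mice.

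Other genes that PXR ligands are known to induce were not lower in Pxr-/- mice. Of 14 tested, 4 were higher in Pxr-/- control males, 7 in Pxr-/- ATB males, 4 in Pxr-/- control females and 4 in Pxr-/- ATB females, and 0 were lower in any of the 4 comparisons. The list medians were 0.37, 0.53, 0.43 and 0.50, against -0.04, -0.13, -0.12 and 0.00 for all genes. The carboxylesterase Ces2a was higher in all 4, by 0.59, 0.85, 0.77 and 1.37, and the cytochrome P450 Cyp3a11 was higher in Pxr-/- ATB males by 2.40.

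With ATB, 4 of the 14 were lower in Pxr+/+ males, led by Cyp2b10 (-3.11) and Cyp3a11 (-2.04), while Slco1a4 in the same mice was at 0.19. Cyp2b10 was also lower with ATB in Pxr-/- males (-1.87), and Ces2a in Pxr+/+ females (-0.56). These genes kept their direction under each of the 4 other scalings.

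Among 9 genes of bile acid sensing and synthesis, 2 were called between genotypes, both in control females, with Cyp7a1, the rate-limiting enzyme, at -2.04 and the sterol hydroxylase Cyp8b1 at -1.03. Their list median was -0.08, against -0.12 for all genes. The Cyp7a1 call was kept under 2 of 4 other scalings and the Cyp8b1 call under 0. Cyp7b1, an oxysterol hydroxylase known to be male-biased, was higher in males in the 4 sex comparisons, by 2.53 to 2.86.

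Slco1a1 differed between the sexes, as did genes known to follow the sex-dependent pattern of growth hormone release. All 11 genes of that list were called in each of the 4 sex comparisons, 5 higher and 6 lower in males. They were listed because they are known to differ by sex, so these calls say nothing about Slco1a1. In Pxr+/+ control mice, Hsd3b5, a male-biased steroid dehydrogenase, was higher in males by 7.75, while the sulfotransferase Sult2a1 was lower (-10.50). The mean of Sult2a1 in these males was 4.69, near background, so the size of its difference is uncertain. Male levels of Cyp4a12a exceeded female ones at least 251-fold, its probe being well above background in 0 of these females. Over the 47 mice, the genes most like Slco1a1 by Pearson's r were Hsd3b5 (0.963), Ces3b (0.953) and Susd4 (0.94). With group means taken out, Hsd3b5 was again the closest, at 0.668.

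For Slco1a4 the closest genes over all 47 mice were a transcript named by its Ensembl identifier ENSMUST00000122341 (0.902), the retinol dehydrogenase Rdh16f2 (0.901) and Fibin (0.894). With group means taken out they were Cyp2d22 (0.737), the sulfotransferase Sult1a1 (0.736) and ENSMUST00000079818 (0.727). Slco1b2 was most like the glycerol channel Aqp9 (0.878), Slco2a1 like Hsd11b1 (0.846), Slco2b1 like Hebp1 (0.877) and Slc10a1 like Elk1 (0.923). Between the transporters themselves, Slco1a1 and Slco1a4 had r = -0.72 over all mice and -0.20 with group means taken out. These correlations are descriptions over 47 arrays that share 1 normalization, among which the sexes differ in many genes.

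**Figure D4:**
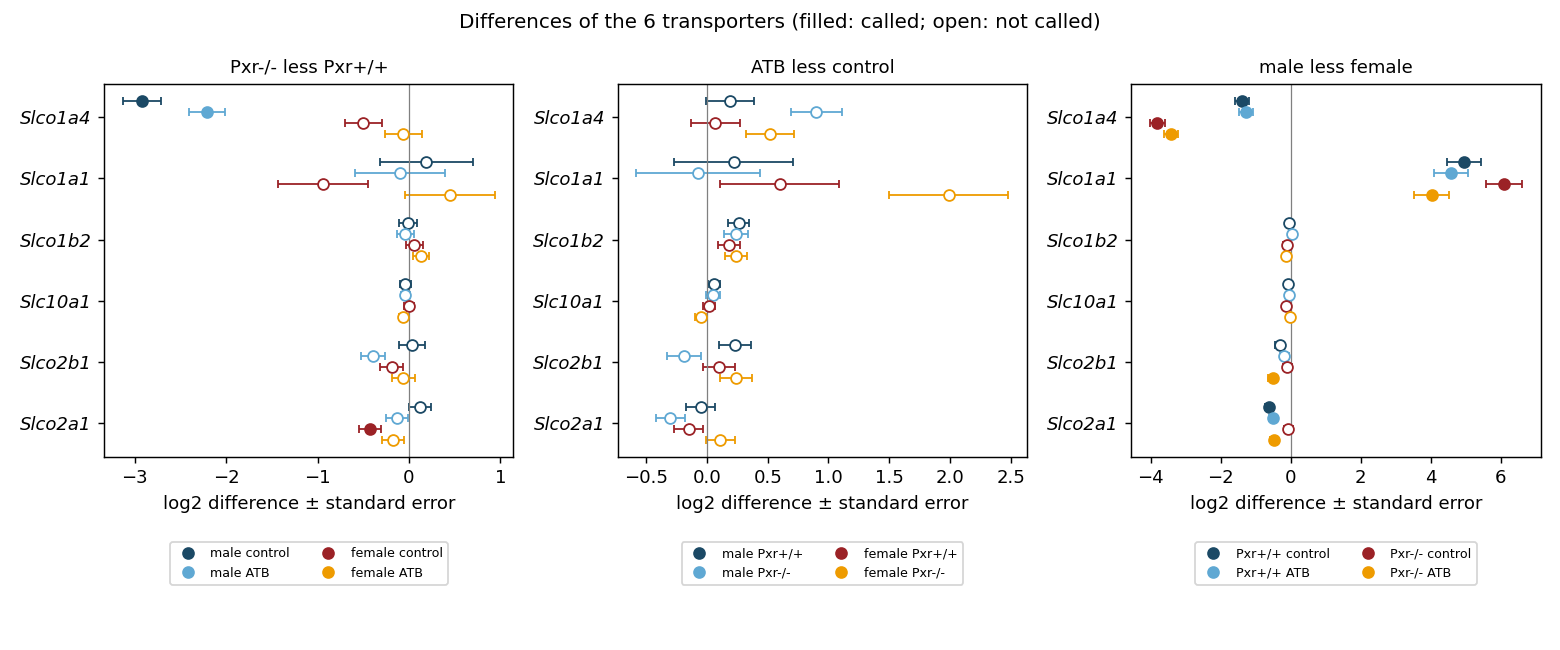
Log2 differences (x axis) of the 6 transporters (y axis) in the comparisons of genotype, treatment and sex (panels, left to right), with the standard error as bars, filled symbols for called and open symbols for values not called. The genotype panel has 2 called values far to the left, Slco1a4 at -2.92 and -2.21, the treatment panel has 0 called values, and the sex panel shows Slco1a1 at 4.03 to 6.10 opposite Slco1a4 at -1.27 to -3.81.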

How the data were processed

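Liver RNA of 47 mice was hybridized to 1-colour Agilent arrays, and the scanner files deposited by the authors hold spot intensity values extracted with Agilent Feature Extraction 10.10.1.1, per the submitters' processing notes. The authors also deposited a filtered table of log2 values, after CrossNorm and a correction of wash effects, which was used here as an alternative. Groups, replicate numbers and wash batches came from the labels. Here, log2 of the median spot intensity was normalized with CrossNorm (300 random stacks, seed 20), which keeps shifts of a whole group, and 422 non-uniform spots were left out. A probe was tested if the scanner called it well above background in 5 or more mice of any group (32974 probes, 21873 genes). limma 3.58.1 in R 4.3.3 fitted group and wash batch over all 47 arrays, with Benjamini-Hochberg adjustment over all probes tested. Of the tested probes, 32791 were in the authors' table. Gene symbols were updated through RefSeq for 1535 probes. Figures were drawn with matplotlib 3.10.9.

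The set of member symbols, the gene lists and the tests were chosen with earlier results of these data known, while the rule that finds the members' probes uses symbols alone. The genes named are the 6 transporters with every probe, up to 4 of the largest called changes per list and comparison, the genotype and sex checks, and the genes most like each transporter by Pearson's r. A gene that this rule names is not reported here. The procedure was tested on simulated data. Replicate numbers did not pair the mice. The highest correlation between 2 arrays was 0.9979, and no array was taken for a repeat of another. The number of arrays limits the precision. Alternatives covered normalization, background correction, the filter on dim probes, batch terms, the samples fitted and leaving out each array.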

Additional observations from a re-analysis of the deposited data

Results flagged for a closer look

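In 4 of 48 groups of mice tested (6 transporters in 8 groups), 1 mouse stood apart from the rest by Dixon's criterion, which chance alone meets in about 1 of 20 groups. Slco1a4 was at 10.12 in Pxr-/- control female 1, against 10.92 in the nearest mouse. Slco2a1 was at 12.37 in Pxr+/+ ATB female 5, against 12.57 in the nearest. Slco2b1 was at 12.74 in Pxr-/- ATB female 1, against 13.40 in the nearest, and at 13.50 in Pxr+/+ control male 5, against 13.04 in the nearest.

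The effect of genotype on Slco1a4 differed between males and females, by -2.42 in control mice (adjusted p = 9.33e-06, limma) and by -2.15 in ATB mice (adjusted p = 2.37e-05). The female effect was -0.50 in control and -0.06 in ATB mice, and neither passed the threshold.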

How the results depend on the processing

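The genotype difference of Slco1a4 kept its direction and its call under all 13 alternatives, from -3.15 to -2.57 in control males and from -2.31 to -1.90 in ATB males, and with any 1 of the 47 mice left out, from -3.09 to -2.79 and from -2.29 to -2.10. The male less female effect lay between -2.59 and -2.28 in control and between -2.25 and -2.03 in ATB mice when 1 mouse was left out. Within wash batch 1 it was -1.81 and -1.88 and was not called, and within batches 2 and 3 it was -2.90 and -2.43 and was called, with 3 or fewer mice per group in either fit. The cause was not tested. The counts of called values when 1 mouse was left out were 2 to 3 of 24 between genotypes, 0 to 1 of 24 with ATB, 12 to 13 of 24 between the sexes and 2 of 36 for differences between effects. Under the other alternatives these counts were 2 to 4, 0 to 1, 8 to 14 and 2. The count with ATB became 1 with the processed signal (Slco1a4 in Pxr-/- males) and the cause was not tested. The lowest count between the sexes, 8, came from the filter that requires a signal well above background on all 47 arrays, which drops the brighter Slco1a1 probe. The second Slco1a1 probe passed that filter and was called in the 4 comparisons. No call of a transporter changed direction, while the uncalled Slco1b2 difference between Pxr+/+ control males and females (-0.04) was 0.27 and called with the processed signal.

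Among the single calls between the sexes, those of Slco1a1 and Slco1a4, by their brightest probe, were kept under all alternatives in which they could be tested. Slco2a1 lost its call under 1 of 13 alternatives in Pxr+/+ control, 2 in Pxr+/+ ATB and 4 in Pxr-/- ATB mice, and Slco2b1 under 2 in Pxr-/- ATB mice. Slco2b1 in Pxr+/+ control mice (-0.31, adjusted p = 0.0639) passed without Pxr+/+ control male 5, at -0.41 (adjusted p = 0.0153).

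Same-numbered mice of different groups did not deviate together (median r = -0.055 over 161 pairs, with 38 above 0.1), so the numbers do not pair the mice. With the replicate number as a block the counts stayed at 3, 0, 12 and 2, the Slco1a4 genotype differences were -2.97 and -2.21, and their differences between the sexes -2.46 and -2.15.

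A signal from a median background of 15 to 21 limits the dimmer second probes of Slco1b2 and Slco2b1, and Slco1a1 in females. The arrays measure mRNA in whole liver and hold no measure of transport or protein.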
